A study of Mus musculus with 64 samples.

Results

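The comparison described here set 8 prefrontal cortex samples of wild-type mice given PF-04447943 against 8 prefrontal cortex samples of wild-type mice given vehicle, 16 of the 64 samples of the series. The samples were chosen by their labelled region, genotype and treatment. All 16 came from non-transgenic mice on the B6SJLF1 hybrid background, aged 4 months, and every mouse, controls included, carried an implanted minipump that delivered its solution under the skin for 28 days. The control group differed in receiving vehicle alone. The sources used here do not give the drug dose, the composition of the vehicle or the sex of the mice. One Affymetrix whole-genome mouse array was used per sample, and levels are given as log2 of the deposited intensity. The other 48 samples were hippocampus of the same treatments and both regions of Tg2576 mice, a line transgenic for a human amyloid precursor protein, and their levels enter only where stated. The Tg2576 prefrontal cortex arrays also enter the estimate of the spread behind the limma standard errors, intervals and p-values of the main comparison. Whether each array stands for 1 mouse is given only by the series' statement of 8 mice per group. The limma p-values of the main comparison rest on the spread between samples within all 4 prefrontal cortex groups. The permutation p-values rest on the arrays they compare.

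PF-04447943 inhibits the enzyme encoded by Pde9a, a phosphodiesterase with high affinity for cyclic GMP. In neurons, cyclic GMP is made by guanylyl cyclases that respond to nitric oxide or natriuretic peptides, acts through cyclic GMP-dependent protein kinases and ion channels, and is broken down by several phosphodiesterases. This pathway is known for its part in synaptic plasticity, where it can lead to phosphorylation of CREB, a transcription factor that binds the sequence TGACGTCA in the promoters of activity-dependent genes. The comparison addresses which RNAs differ in cortex after weeks of enzyme inhibition in mice without the transgene.

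The tissue label was checked against regional markers. The cortical genes Cux2, Tbr1 and Rorb were higher in vehicle-treated prefrontal cortex than in vehicle-treated hippocampus by 2.29, 1.63 and 1.38 on the log2 scale. Fezf2, of deep cortical layers, and Slc17a7, a glutamate transporter of both regions, were not higher in cortex, at -0.39 and -0.069 (limma adjusted p = 0.0764 and 0.753). The hippocampal genes Dsp, Tdo2 and Prox1 lay below the level filter in cortex. The arrays differed most in genes of striatal neurons, the cells of a region close to the frontal cortex. The mean level of the 11 tested striatal genes ran from 7.85 to 10.84 over the vehicle arrays and from 7.64 to 10.07 over the PF-04447943 arrays. It was above 9 in vehicle replicates 2, 5 and 8 and in PF-04447943 replicates 2, 5 and 8. Excitatory neuron markers were lowest in vehicle replicate 5, at a mean of 10.36, and in PF-04447943 replicate 8, at 10.61, whose means were the highest of their groups for the striatal genes. The group difference in the striatal list was -0.21 (exact permutation p = 0.688, two-sided, 8 against 8 arrays). Values without 1 or both of these arrays stand beside several of the lists they move. In bulk tissue, fewer cells of a type and less RNA per cell cannot be told apart.

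The signal range, measured on each array as the spread between the quartiles of its log2 values, was 3.59 ± 0.13 under vehicle and 3.61 ± 0.13 under PF-04447943 (SD, n = 8 each, exact permutation p = 0.66, adjusted p = 0.755 over 3 technical measures). It was 3.7 in the arrays numbered 1 to 4 of both groups and 3.5 in those numbered 5 to 8 (exact permutation p = 0.000932). Over the 32 prefrontal cortex arrays, 7277 genes (56.3%) differed between these sets of numbers past the adjusted threshold in limma. The sources used here do not say what the numbers stand for, and each group had 4 arrays in either set. With the sets as a block, the differences of the 24 leading genes described below were the same and the median standard error over all genes was 0.0702. Then 533 genes had an unadjusted p under 0.05 and 0 passed the threshold (smallest limma adjusted p 0.8143).

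**Figure D1:**
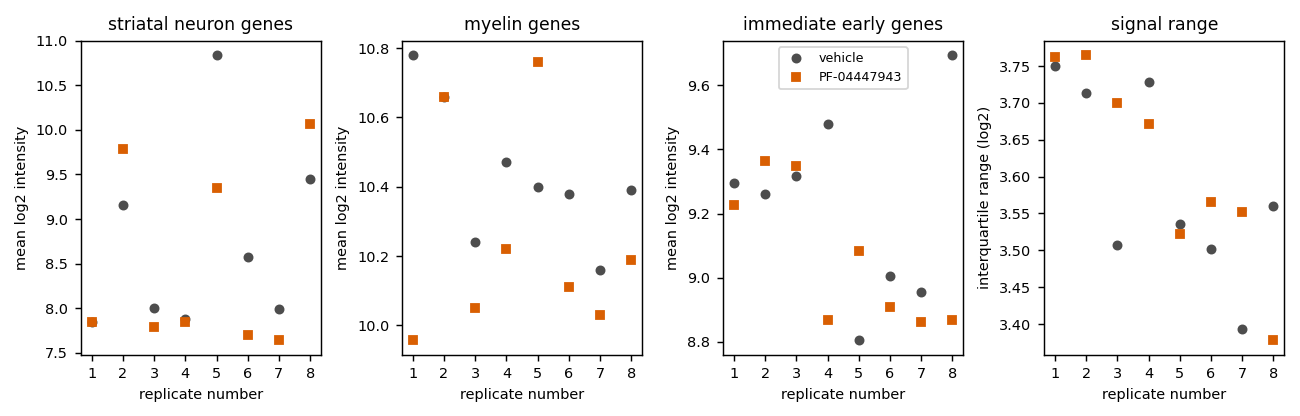
Mean log2 intensity of 3 gene lists and the signal range (interquartile range of log2 values) on each of the 16 arrays, by replicate number, with vehicle as grey circles and PF-04447943 as orange squares. Striatal genes ran from 7.64 to 10.84 and were above 9 in replicates 2, 5 and 8 of both groups, and the immediate early genes of the groups overlapped.

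No gene changed past the threshold. Of 12932 genes tested with limma, 0 (0%) had an adjusted p under 0.05 after Benjamini-Hochberg adjustment, with 0.9997 as the lowest value. Unadjusted, 326 genes (2.52%) had a p under 0.05, against 646.6 expected by chance. Of these 326, 177 (1.37% of all genes) were higher under PF-04447943 and 149 (1.15%) were lower, with a median absolute difference of 0.16. The number of genes with an unadjusted p under 0.05 was 388 without these 2 arrays, vehicle replicate 5 and PF-04447943 replicate 8, of which 261 were higher, and 398 with the striatal level as a covariate, and no gene passed the adjusted threshold in either.

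The size of the differences that these arrays leave room for was small for most genes. The median standard error was 0.081, and the middle 95% of the differences lay between -0.17 and 0.17 on the log2 scale. For 12554 genes, or 97.1%, the 95% interval of the difference lay within 1.5-fold in either direction. It lay within 2-fold for 12868 genes, or 99.5%, and reached beyond 2-fold for 64. The median difference over all genes was 0.0077, and 54.1% of the genes lay above 0.

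**Figure D2:**
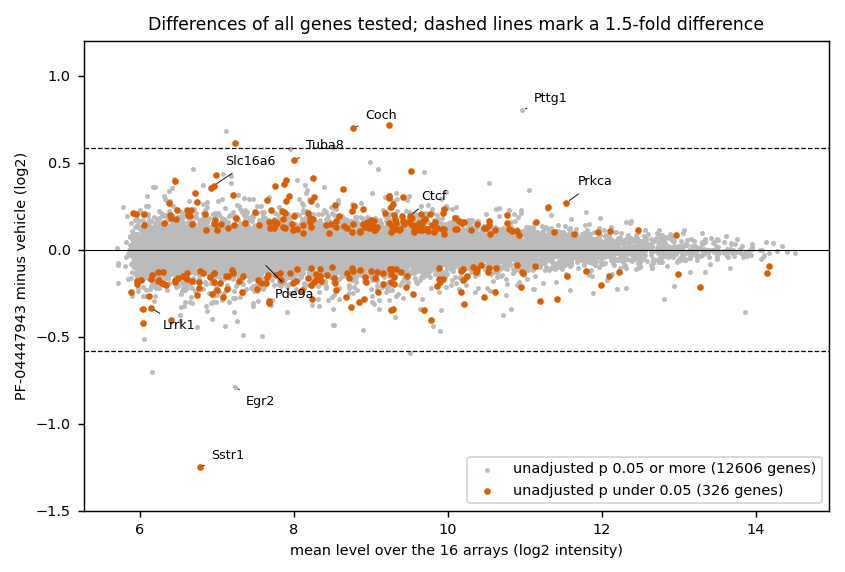
Difference between PF-04447943 and vehicle (log2) against the mean level (log2 intensity) of each of the 12932 genes tested in wild-type prefrontal cortex, with the 326 genes of unadjusted p under 0.05 in orange and dashed lines at a 1.5-fold difference. Nearly all genes lie between the dashed lines, 14 differ by more than 0.5, and Sstr1, at -1.25, is the 1 gene beyond 1.

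Pde9a, the gene of the inhibited enzyme, was measured by 1 probe set. Its level ran from 7.46 to 8.11 under vehicle, with a median of 7.60, and from 7.32 to 7.69 under PF-04447943, with a median of 7.62. The groups overlapped, and the vehicle array of replicate 5 stood above the other 15. The difference was -0.077 ± 0.072 (SE, 95% interval -0.22 to 0.071, limma adjusted p = 0.9997), and 6 of 8 PF-04447943 arrays lay below the vehicle mean. Without vehicle replicate 5, the array with the highest striatal level, the difference was -0.010. With the striatal level as a covariate and all arrays kept, it was -0.065 ± 0.067 (SE). Over the 16 arrays the correlation of Pde9a with the striatal list was 0.60, given as a description, and vehicle replicate 5 was the highest array in both.

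Other genes of cyclic GMP signalling showed no difference past the threshold either. Of the 31 genes of a list of its synthesis, breakdown and kinases, which holds Pde9a itself, the channel Hcn2 and the kinase substrate Vasp, 29 were on the array and 20 were tested. None of the 20 had an unadjusted p under 0.05, against 2.52% of all genes, 9 lay above 0, and their median difference was -0.0087 beside 0.0077 for all genes. That median was 0.0021 with arrays centred, 0.019 without vehicle replicate 5 and 0.025 without both that array and PF-04447943 replicate 8, so its sign is not settled. Nppc, the gene of C-type natriuretic peptide, had the smallest p of the list. It ran from 6.81 to 7.29 under vehicle, with a median of 6.97, and from 6.94 to 7.54 under PF-04447943, with a median of 7.13, a difference of 0.17 ± 0.095 (SE, limma adjusted p = 0.9997).

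Among the makers of cyclic GMP, the subunits of the nitric oxide-sensitive guanylyl cyclase were close to 0. Gucy1b1 differed by -0.0059 ± 0.042 (95% interval -0.092 to 0.08) and Gucy1a1 by 0.051 ± 0.11 (SE). The natriuretic peptide receptor Npr2, itself a guanylyl cyclase, differed by -0.012 ± 0.056. The kinases that cyclic GMP activates, Prkg1 and Prkg2, differed by 0.046 ± 0.083 and 0.076 ± 0.099 (SE).

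The other phosphodiesterases that cleave cyclic GMP likewise missed the threshold. Pde5a differed by 0.18 ± 0.16, Pde2a by -0.063 ± 0.089 and Pde1a by 0.019 ± 0.11 (SE). Pde10a and Pde1b, which are abundant in striatal neurons, had wider errors, at -0.23 ± 0.49 and -0.028 ± 0.28. Both were highest in vehicle replicate 5. Among 18 tested genes of cyclic AMP synthesis, breakdown and kinase, a pathway which cyclic GMP can influence through shared phosphodiesterases, 0 had an unadjusted p under 0.05 and the median difference was 0.0035.

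The 12 genes with a positive difference and the smallest p are described as not past the threshold, each at a limma adjusted p of 0.9997. In all 12, the 8 PF-04447943 arrays lay above the vehicle mean, which the choice by p favours. Ctcf, a zinc finger protein that organises chromatin loops, had the smallest p of all genes. It ran from 9.17 to 9.54 under vehicle, with a median of 9.43, and from 9.52 to 9.71 under PF-04447943, with a median of 9.63. The lowest PF-04447943 arrays overlapped the highest vehicle arrays, 5 of 8 PF-04447943 arrays lay above every vehicle array, and the difference was 0.19 ± 0.047 (SE, limma adjusted p = 0.9997). The other probe set of Ctcf, at a similar mean level of 9.43 beside 9.52, differed by -0.0097 ± 0.064, so the probe sets of this gene disagreed.

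Prkca, which encodes protein kinase C alpha, ran from 11.25 to 11.61 under vehicle and from 11.50 to 11.84 under PF-04447943, with medians of 11.40 and 11.71. The groups overlapped in their edges, and 5 of 8 PF-04447943 arrays exceeded every vehicle array. The difference was 0.27 ± 0.069 (SE, limma adjusted p = 0.9997), and its other probe sets differed by 0.22 ± 0.12 and 0.19 ± 0.12, in the same direction.

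Clec2l, a C-type lectin-like gene, was the 1 gene of all 12932 whose groups did not overlap (0.00773%). Its highest vehicle array and its lowest PF-04447943 array both read 9.32, and its medians were 9.23 and 9.38, a difference of 0.18 ± 0.052 (SE). Tuba8, an alpha tubulin, had the widest difference of the 12, at 0.52 ± 0.15. It ran from 6.94 to 8.05 under vehicle and from 7.84 to 8.65 under PF-04447943, and the lowest value belonged to vehicle replicate 5. Without that array and PF-04447943 replicate 8, the difference of Tuba8 was 0.39 ± 0.15.

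The rest of the 12 were of varied function. Stam2, an adaptor that sorts receptors at endosomes, ran from 7.98 to 8.22 and from 8.14 to 8.39, and 7 of 8 PF-04447943 arrays exceeded every vehicle array, with a difference of 0.18 ± 0.044 (SE). Slc16a6, of the monocarboxylate transporter family, differed by 0.37 ± 0.092, the Kruppel-like transcription factor Klf11 by 0.37 ± 0.11, and the transcriptional repressor Zbtb7a by 0.28 ± 0.075. Dmac1, an assembly factor of respiratory complex I, differed by 0.16 ± 0.043. Gmeb1, a nuclear protein that binds glucocorticoid modulatory elements, differed by 0.22 ± 0.064, and Bloc1s3, a subunit of a complex that forms lysosome-related organelles, by 0.21 ± 0.064. Zfp385b, a zinc finger gene, differed by 0.19 ± 0.059. When all probe sets of a gene were averaged, the differences were 0.031 for Stam2, 0.038 for Gmeb1, 0.092 for Ctcf and 0.12 for Zbtb7a, so the other probe sets of these genes did not share the size of the brightest.

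The 12 genes with a negative difference and the smallest p also had a limma adjusted p of 0.9997. Lrrk1, a kinase of the LRRK family, had the smallest p of them. It ran from 6.17 to 6.68 under vehicle, with a median of 6.29, and from 5.69 to 6.32 under PF-04447943, with a median of 5.97. One PF-04447943 array lay within the vehicle range and 7 of 8 lay below it, and the difference was -0.34 ± 0.090 (SE, limma adjusted p = 0.9997). Its level is near the filter of 5.91, where probe sets are dim.

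Grik3, a kainate receptor subunit, ran from 9.31 to 9.69 under vehicle, with a median of 9.49, and from 8.72 to 9.35 under PF-04447943, with a median of 9.18. All 8 PF-04447943 arrays lay below the vehicle mean, and 6 lay below every vehicle array. The difference was -0.34 ± 0.11 (SE, limma adjusted p = 0.9997). The dimmer probe set of Grik3, at a mean level of 6.95, differed by 0.098 ± 0.071, in the opposite direction.

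Chl1, a cell adhesion molecule of the L1 family, ran from 11.17 to 11.57 under vehicle and from 10.62 to 11.34 under PF-04447943, a difference of -0.30 ± 0.093 (SE). Its PF-04447943 arrays all lay below the vehicle mean, with 5 of 8 below every vehicle array. Srsf10, a splicing factor, had a tighter spread: vehicle arrays ran from 9.28 to 9.44 and PF-04447943 arrays from 9.13 to 9.30, and 7 of 8 of the latter lay below every vehicle array, at a difference of -0.14 ± 0.046. Ythdc1, a nuclear reader of methylated adenosine in RNA, differed by -0.13 ± 0.045.

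Others of the 12 were Mrpl52, of the large subunit of the mitochondrial ribosome, at -0.18 ± 0.053, and Insc, which acts in spindle orientation, at -0.27 ± 0.082. The orphan receptor Gpr19 differed by -0.19 ± 0.060 and thymidylate kinase, Dtymk, by -0.16 ± 0.054. Cish, an inhibitor of cytokine receptor signalling, differed by -0.19 ± 0.065 and Lmf2, a lipase maturation factor, by -0.15 ± 0.051. C1ql2, a secreted synaptic protein that is abundant in dentate granule cells, differed by -0.34 ± 0.12, at vehicle and PF-04447943 means of 6.22 and 5.87 that lie near the filter. Of the 24 leading genes 15 had several probe sets. With these averaged, the differences were -0.031 for Mrpl52, -0.026 for Gpr19, -0.053 for Srsf10, -0.054 for Dtymk, -0.12 for Grik3 and -0.17 for Chl1, so the sizes given for these genes rest on the brightest probe set.

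**Figure D3:**
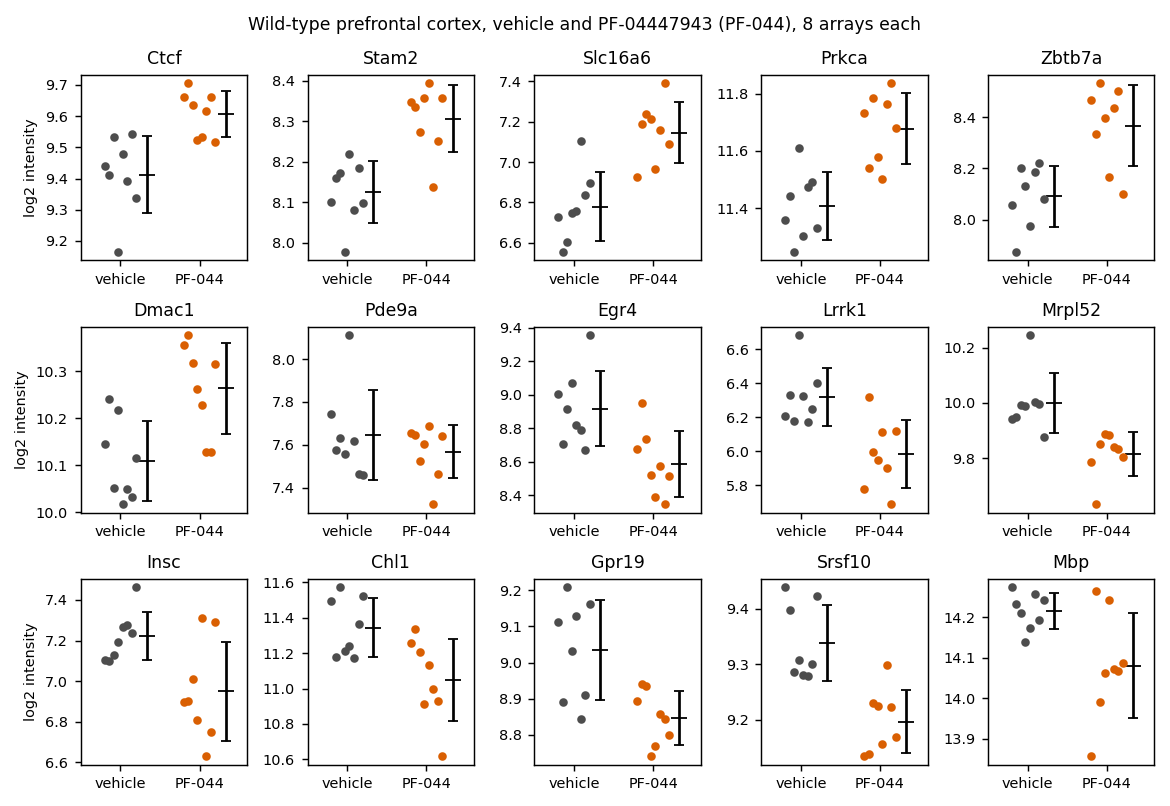
Levels (log2 intensity) of 15 genes on the 8 vehicle arrays (grey) and the 8 PF-04447943 arrays (orange), ordered within a group by replicate number, with the mean and SD as a bar beside the points. Shown are the 6 positive and the 6 negative differences with the smallest p, with Pde9a, Egr4 and Mbp, and the groups of every gene shown overlap, such as 9.17 to 9.54 and 9.52 to 9.71 for Ctcf.

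The immediate early genes, which neurons transcribe within minutes of activity and many of which CREB can induce, were examined as a list of 28, of which 27 were tested. One of them, Egr4, had an unadjusted p under 0.05, and none passed the adjusted threshold. Of the 27, 21 lay below 0 and 6 above, with a median difference of -0.13 beside 0.0077 for all genes. The list means of all 8 PF-04447943 arrays, from 8.86 to 9.36, lay within the range of the vehicle arrays, from 8.81 to 9.69. The lowest mean of all, 8.81, belonged to vehicle replicate 5. The median ran from -0.2 without vehicle replicate 5 to -0.069 without vehicle replicate 8, whose list mean of 9.69 was the highest.

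Egr4, a zinc finger transcription factor, ran from 8.67 to 9.36 under vehicle, with a median of 8.87, and from 8.35 to 8.95 under PF-04447943, with a median of 8.55. The groups overlapped, with 7 of 8 PF-04447943 arrays below the vehicle mean, and the difference was -0.33 ± 0.12 (SE, limma adjusted p = 0.9997). Its relative Egr2 ran from 7.08 to 8.51 and from 5.95 to 7.65, a difference of -0.79 ± 0.43 (SE). Nr4a2, a nuclear receptor of the same response, ran from 9.04 to 11.06 and from 8.29 to 10.31, and differed by -0.60 ± 0.37.

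Fos ran from 9.53 to 11.03 under vehicle and from 8.56 to 10.42 under PF-04447943, and differed by -0.47 ± 0.38 (SE). Egr1 differed by -0.29 ± 0.20, Nr4a1 by -0.34 ± 0.23 and Junb by -0.29 ± 0.21. Arc, whose product acts at active synapses, differed by -0.084 ± 0.33, and Npas4, which responds to calcium entry, by 0.12 ± 0.37. The highest positive differences of the list were those of Nptx2, at 0.24 ± 0.19, and Jun, at 0.20 ± 0.12. Standard errors in the list reached 0.43, beside a median of 0.081 over all genes. With the signal range as a covariate, 4 members had an unadjusted p under 0.05, all of them lower, and the median was -0.2. In that setting 5.14% of all genes had an unadjusted p under 0.05, with 366 lower and 299 higher. The median of all genes was then -0.0039.

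Promoters of 2 members of this list are shown because they hold the full cyclic AMP response element, TGACGTCA, the sequence through which CREB acts. Each stretch is 100 bases long and lies wholly before the transcription start, and the element begins 166 bases before the start in Btg2 and 143 in Dusp1. The bases are given 5′ to 3′ on the gene's strand, from RefSeq on GRCm38.p6, with the element in capitals. The Btg2 stretch is chr1:134079268-134079367 and the Dusp1 stretch is chr17:26508562-26508661, both on the minus strand.
Btg2: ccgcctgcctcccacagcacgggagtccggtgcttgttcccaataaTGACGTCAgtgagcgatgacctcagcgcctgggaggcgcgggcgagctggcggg
Dusp1: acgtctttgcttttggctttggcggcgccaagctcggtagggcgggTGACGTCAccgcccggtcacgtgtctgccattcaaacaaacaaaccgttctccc
Btg2, a growth-arrest gene, differed by -0.25 ± 0.40 (SE), and Dusp1, a phosphatase of MAP kinases, by -0.064 ± 0.22, neither with an unadjusted p under 0.05.

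The motif, which reads the same on both strands, was searched in windows from 250 bases before to 50 after each start. It was found in 588 of 32851 windows, or 1.79%. Of 362 tested genes with it, 11 had an unadjusted p under 0.05, or 3.04% beside 2.52% of all genes, and 207 lay above 0, with a median difference of 0.015. Of the 10050 tested genes whose windows lacked it, 260 did, or 2.59%. Of the 11, 1 was higher, the prohormone convertase Pcsk1 at 0.38 ± 0.15 (SE), and 10 were lower, among them the somatostatin receptor Sstr2 at -0.30 ± 0.14 and the tubulin Tubb2a at -0.14 ± 0.064. Without PF-04447943 replicate 8, 14 such genes had an unadjusted p under 0.05, of which 9 were higher. With array weights 38 genes did (10.5%), of which 27 were higher, and without vehicle replicate 2 there were 6 higher and 6 lower. The direction of this small set is therefore not settled. Limma gave all 11 an adjusted p of 0.9997.

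CREB itself and its partners differed little. Of 20 genes of CREB and neurotrophin signalling, 14 were tested, 0 had an unadjusted p under 0.05 and the median difference was 0.025. Creb1 ran from 9.88 to 10.23 under vehicle and from 9.86 to 10.23 under PF-04447943, a difference of 0.028 ± 0.061 (SE, 95% interval -0.096 to 0.15). Bdnf, the neurotrophin that activity induces, differed by 0.081 ± 0.26, and its receptor Ntrk2 by 0.10 ± 0.057, with 7 of 8 PF-04447943 arrays above the vehicle mean.

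Receptors and synaptic genes are given beside the 2.52% of all genes with an unadjusted p under 0.05. At that share a count of 0 in lists this short says little. Of 18 tested AMPA receptor genes and partners, 0 had an unadjusted p under 0.05, with a median difference of 0.015, and of 12 NMDA and kainate receptor genes Grik3 alone did. None of 11 GABA-A receptor genes did, of which 9 lay above 0, with a median of 0.036. Postsynaptic scaffolds and calcium/calmodulin kinases held 0 of 19 and the presynaptic release machinery 0 of 25, with medians of 0.035 and 0.033. Acetylcholine, serotonin, dopamine and opioid receptors held 0 of 24, at a median of -0.011, and calcineurin subunits and regulators 0 of 14, at 0.0036. Without vehicle replicate 5 the medians were -0.014 for the AMPA receptor list and -0.015 for presynaptic release. They were 0.024 for the list of acetylcholine and other receptors, 0.015 for postsynaptic scaffolds and 0.04 for GABA-A receptors. In the same order they were -0.004, 0.062, -0.033, 0.07 and 0.1 without PF-04447943 replicate 8, so these small values move with either array. Without both arrays the GABA-A median was 0.07. Then 2 of its members were higher at an unadjusted p under 0.05, beside 3% of all genes at such a p in either direction.

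Potassium channels lay above 0 in 21 of 27 tested genes, with a median of 0.071 and 0 with an unadjusted p under 0.05. Kcnj9, an inward rectifier that G proteins open, differed by 0.39 ± 0.20 (SE), with 7 of 8 PF-04447943 arrays above the vehicle mean, and Kcnip2, an auxiliary subunit, by 0.21 ± 0.12. The list mean was lowest in PF-04447943 replicate 8 and in vehicle replicate 5, the arrays with the least excitatory marker RNA. Without these 2 arrays the median was 0.094 with 24 of 27 above 0. It was 0.045 without vehicle replicate 5 alone, with 19 above 0, and 0.11 without PF-04447943 replicate 8 alone, with 23 above 0. In Tg2576 prefrontal cortex the median of this list was -0.0064, with 12 of 27 above 0. In wild-type hippocampus it was 0.051, with 21 of 27 above 0.

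All 12 tested genes of oligodendrocytes and myelin lay below 0, with a median difference of -0.17 beside 0.0077 for all genes, of which 54.1% lay above 0. Of the 12, 2 had an unadjusted p under 0.05, beside 2.52% of all genes, a small count on shared arrays. Mbp, a major myelin protein, ran from 14.14 to 14.27 under vehicle, with a median of 14.22, and from 13.86 to 14.26 under PF-04447943, with a median of 14.07. The ranges overlapped, 6 of 8 PF-04447943 arrays lay below the vehicle mean, and the difference was -0.13 ± 0.057 (SE, limma adjusted p = 0.9997). Cldn11, the claudin of myelin, ran from 9.54 to 10.23 and from 8.87 to 10.14, and differed by -0.35 ± 0.16, also with an unadjusted p under 0.05. Without vehicle replicate 5 and PF-04447943 replicate 8 the difference of Cldn11 was -0.32 ± 0.17, and Mbp alone of the 12 had an unadjusted p under 0.05.

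The 12 genes share the same 16 arrays and are not separate replicates. Their list mean ran from 10.16 to 10.78 under vehicle and from 9.96 to 10.76 under PF-04447943, and PF-04447943 replicates 2 and 5 were as high as the highest vehicle arrays. The median ran from -0.25 to -0.13 as each array was left out. With the striatal level as a covariate it was -0.14, and all 12 members remained below 0. Precursor markers such as Pdgfra were closer to 0, at a median of -0.052 over 6 genes.

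Other cell types were described by their marker lists. All 10 tested genes of meninges and fibroblasts lay below 0, with a median of -0.22, but 0 had an unadjusted p under 0.05. Col3a1, a collagen, was the largest of them at -0.34 ± 0.25 (SE) and was highest in vehicle replicate 5, the list mean of which was 8.00 against 6.61 to 7.52 in the other vehicle arrays. Without that array the median of the list was -0.12, with 1 of 10 above 0, and with the striatal level as a covariate it was -0.16. It was -0.29 without PF-04447943 replicate 8 and -0.21 without both arrays, with 0 of 10 above 0 in each. Striatal neuron genes had a median of -0.23 with all arrays, 0.093 without vehicle replicate 5 and -0.48 without PF-04447943 replicate 8. Drd1, a dopamine receptor, ran from 7.62 to 10.96 under vehicle and from 7.30 to 9.95 under PF-04447943, and differed by -0.44 ± 0.55, or by -0.22 with the striatal level as a covariate.

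Neuronal and glial markers were nearer to 0. The median was -0.011 over 9 excitatory neuron markers, 0.076 over 14 inhibitory neuron markers, -0.023 over 13 astrocyte markers and -0.031 over 13 microglial markers. Excitatory markers had a median of -0.11 without vehicle replicate 5 and 0.026 without PF-04447943 replicate 8, and inhibitory markers one of 0.014 without the latter. Without both arrays the medians of astrocytes and microglia turned to 0.011 and 0.014, so the signs of the excitatory, astrocyte and microglial medians are not settled. Glul, the glutamine synthetase of astrocytes, had an unadjusted p under 0.05 at -0.21, as had Rprm, a gene of deep cortical layers, at -0.31, both with a limma adjusted p of 0.9997. Rprm was the 1 gene with such a p among 15 tested genes of cortical layers. Of those 15, 6 lay above 0, and their median was -0.085. Endothelial markers had a median of 0.042 over 11 genes. Of the blood genes 1, Alas2, was tested, and of the choroid plexus genes 4, so neither list says much about its cell type.

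Among general cell functions, 28 of 34 tested subunits of oxidative phosphorylation lay above 0, yet their median was 0.025 and 0 had an unadjusted p under 0.05. Cytosolic ribosomal proteins had 6 of 25 above 0, a median of -0.021 and 1 with an unadjusted p under 0.05, Rpl37 at -0.17. Proteasome subunits had a median of 0.014 over 27 genes, and heat shock and chaperone genes 0.0023 over 21, of which Dnajb5, at -0.27, had an unadjusted p under 0.05. Genes of cholesterol synthesis and uptake had a median of 0.012 over 18 genes, which turned to -0.018 with the signal range as a covariate, with 0 of unadjusted p under 0.05.

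Of 15 tested genes of the interferon response and antigen presentation, 13 lay above 0, with a median of 0.084. The antiviral gene Rsad2 had the smallest p of them, at 0.23 ± 0.11 (SE, limma adjusted p = 0.9997). Their list mean was highest in PF-04447943 replicate 3, at 8.47, against 7.45 to 8.01 in the vehicle arrays. In Tg2576 prefrontal cortex the median of this list was -0.081, with 2 of 15 above 0. In wild-type hippocampus it was 0.0028, with 8 of 16 above 0. Circadian clock genes had a median of -0.022 over 19 genes, and Per1, at -0.27, had an unadjusted p under 0.05. Genes of amyloid precursor processing and clearance, here without the transgene, had a median of -0.027 over 20 genes and 0 with an unadjusted p under 0.05.

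Over all 37 lists, 552 genes were tested and 10 had an unadjusted p under 0.05, or 1.81% beside 2.52% of all genes. Both shares lie below the 5% expected by chance, a share that varies more when genes are not independent. Across 5 other settings and with each of the 16 arrays left out in turn, the median kept its sign in 17 of the 37 lists and turned in 20. The 5 were quantile normalization, centring, the signal range and striatal covariates, and leaving out both vehicle replicate 5 and PF-04447943 replicate 8. Array weights were not among them. All reuse most of the same arrays, which favours a kept sign. Among the 17 were the lists of myelin (-0.25 to -0.13), meninges (-0.3 to -0.12), immediate early genes (-0.2 to -0.069), the interferon response (0.046 to 0.13) and potassium channels (0.045 to 0.11). Lists with medians near 0 were among them too, such as CREB and neurotrophin signalling (0.0022 to 0.036) and cytosolic ribosomal proteins (-0.035 to -0.0056).

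**Figure D4:**
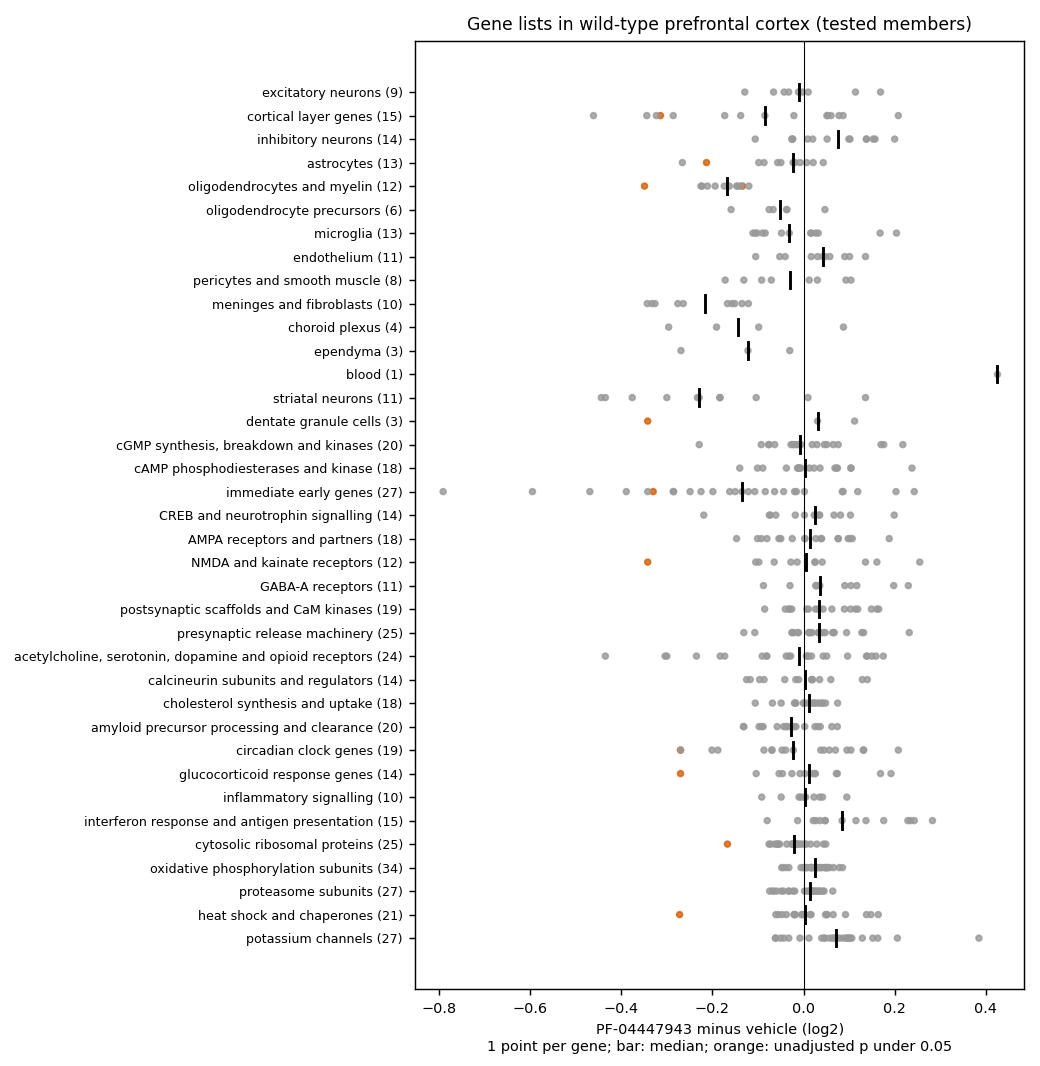
Difference between PF-04447943 and vehicle (log2) of each tested gene of 37 lists in wild-type prefrontal cortex, with the number tested in brackets, the list's median as a black bar and genes of unadjusted p under 0.05 in orange. The myelin and meningeal lists lie wholly below 0, with medians of -0.17 and -0.22, immediate early genes spread widest, from -0.79 to 0.24, and the oxidative phosphorylation list is narrow around 0.025.

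The largest differences by size, chosen after their values were seen, belonged to genes with wide spread. Sstr1, a somatostatin receptor, ran from 6.65 to 8.03 under vehicle, with a median of 7.44, and from 4.45 to 8.29 under PF-04447943, with a median of 6.05. The PF-04447943 range enclosed the vehicle range, and the difference was -1.25 ± 0.47 (SE, limma adjusted p = 0.9997). Coch, a secreted protein, ran from 7.41 to 9.11 and from 8.66 to 9.64, and differed by 0.70 ± 0.23.

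Ddit4l, an inhibitor of mTOR signalling, differed by 0.72 ± 0.29 (SE), with ranges of 7.42 to 9.39 and 8.46 to 10.1 that overlapped. Pttg1, or securin, ran from 8.52 to 12.2 under vehicle and from 8.81 to 12.3 under PF-04447943, so its difference of 0.80 ± 0.60 was no larger than its spread within a group allows. Mid1, a ubiquitin ligase of microtubules, spread as widely, from 5.58 to 8.75 and from 5.99 to 9.31, at 0.68 ± 0.50. None of the named genes of this kind had an adjusted p below 0.9997.

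Whether the differences depended on genotype was examined with the drug by genotype interaction in the 32 prefrontal cortex arrays. The interaction passed the adjusted threshold for 0 of 12932 genes in limma (smallest adjusted p 0.9995), with 428 at an unadjusted p under 0.05 (3.31%). In Tg2576 prefrontal cortex 0 genes passed, with 389 at an unadjusted p under 0.05 (3.01%). Of the 24 leading genes above, 11 had the same sign in Tg2576 mice, and of all genes 44.6% did.

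Ctcf had the smallest p in both genotypes, though these p-values share 1 estimate of the spread from the same fit and are not independent. In Tg2576 prefrontal cortex its brighter probe set ran from 9.36 to 9.50 under vehicle and from 9.47 to 9.72 under PF-04447943. All 8 PF-04447943 arrays lay above the vehicle mean, and the difference was 0.20 ± 0.047 (SE, limma adjusted p = 0.9994). The wild-type difference minus the Tg2576 difference was -0.0052 ± 0.066. Its other probe set did not show the difference in wild-type mice, as given above, and its value in Tg2576 mice is not given here.

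Mrpl52, Grik3 and Akap13 had the smallest interaction p. Mrpl52 differed by -0.18 in wild-type and by 0.13 in Tg2576 mice, and Grik3 by -0.34 and 0.29, each with an interaction adjusted p of 0.9995 in limma. Akap13, a kinase anchor, differed by 0.15 in wild-type mice and by -0.14 in Tg2576 mice. The immediate early genes had a median of -0.013 in Tg2576 prefrontal cortex, with 12 of 27 above 0, and the myelin genes one of -0.099, with 2 of 12 above 0. The differences of these lists between genotypes were not tested.

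Hippocampus of wild-type mice under the same treatments gave more low p-values. There 5 of 12966 genes passed in limma (0.0386%), all lower under PF-04447943, and 1769 had an unadjusted p under 0.05 (13.6%), beside 2.52% in prefrontal cortex. The signal range also moved there, by 0.13 between vehicle and PF-04447943 (exact permutation p = 0.00311, 8 against 8 arrays), and its part in the hippocampal values was not tested. The difference between regions passed the adjusted threshold for 0 of 12954 genes (smallest adjusted p 0.6861), with 623 at an unadjusted p under 0.05 (4.81%). With array weights 9 genes passed, among them Slc17a2, Lelp1 and Cyp17a1, so the count of 0 depends on weighting all arrays alike.

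The 5 hippocampal genes lay close to 0 in prefrontal cortex. Slc17a2, a phosphate transporter, differed by -0.44 in hippocampus and by -0.021 in prefrontal cortex (95% interval -0.19 to 0.15). Kcnk16, a potassium channel, differed by -0.41 and 0.0019, and Insyn2a, of inhibitory synapses, by -0.44 and 0.017. Lelp1 differed by -0.28 and 0.044, and Cyp17a1, a steroid hydroxylase, by -0.32 and 0.050. The regional difference of each had a limma adjusted p between 0.686 and 0.743, and the prefrontal cortex intervals of all 5 lay within -0.19 and 0.22.

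Of the 24 leading prefrontal cortex genes, 19 had the same sign in wild-type hippocampus, and of all genes tested in both 60.5% did. The labels do not say whether both regions came from the same mice. Ctcf differed by 0.15 ± 0.063 (SE) in hippocampus, where it ranked 1075 by p, and Ythdc1 by 0.10 ± 0.043 against -0.13 in prefrontal cortex. Foxf1, a forkhead factor, had the smallest p of the regional difference, at 0.35 ± 0.084 (SE, limma adjusted p = 0.6861). Pde9a differed by 0.078 ± 0.15 in hippocampus, against -0.077 in prefrontal cortex.

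**Figure D5:**
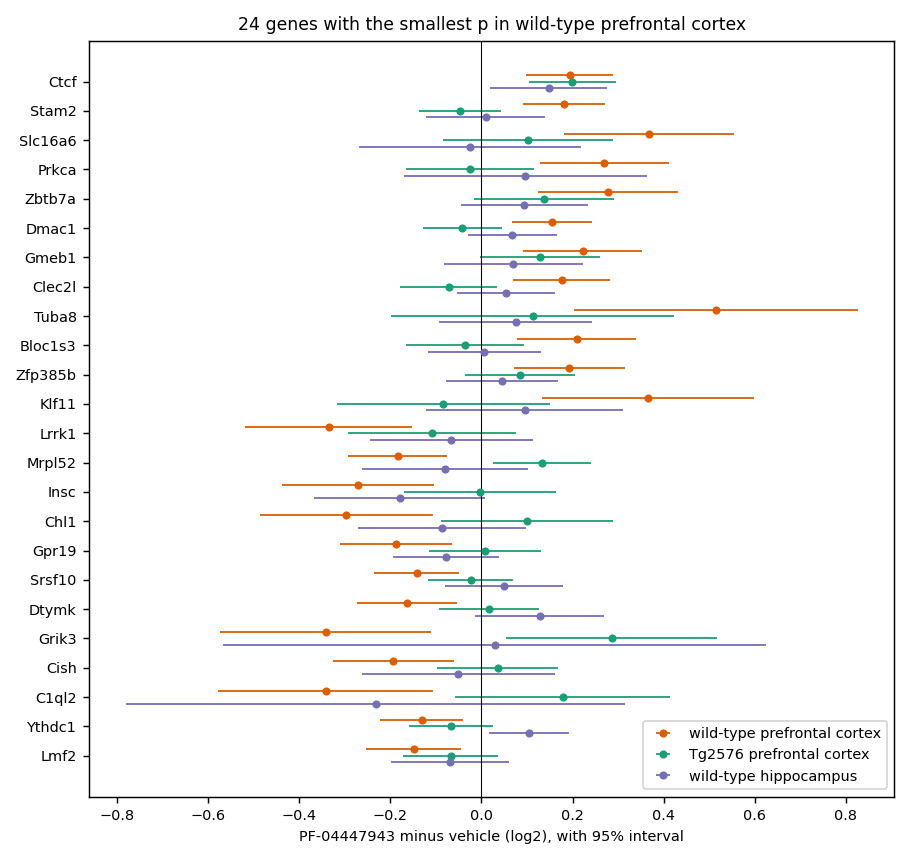
Difference between PF-04447943 and vehicle (log2) with its 95% interval for the 24 genes of smallest p in wild-type prefrontal cortex (orange), and the same genes in Tg2576 prefrontal cortex (green) and wild-type hippocampus (purple). The orange values were chosen by p, and 11 of the 24 have the same sign in Tg2576 prefrontal cortex and 19 in wild-type hippocampus, Ctcf in both.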

How the data were processed

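The authors deposited 1 intensity value per probe set and array on a linear scale. RMA is named in the submitters' processing notes, without a version, and the sources used here do not say whether all arrays were normalized together. Intensities were converted to log2. Of 45101 probe sets, 34945 had 1 gene symbol, 932 several, 9160 none and 64 were controls. Symbols came from the platform annotation, updated through RefSeq on GRCm38.p6. Each of 18193 genes took its brightest probe set, by the mean of the 64 arrays, and 5261 below the 40th percentile (log2 5.91) were left out.

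Differences were tested with limma 3.58.1 in R 4.3.3 (data.table version 1.17.8), with the 4 prefrontal cortex groups in 1 fit and 8 groups in the fit of both regions, as two-sided tests, Benjamini-Hochberg adjusted across the genes of a fit, at a threshold of 0.05. Array measures were compared with exact permutation tests over 12870 regroupings. The fit was tested on simulated data. Named genes were the 12 positive and 12 negative differences with the smallest p (no gene passed), Pde9a, the 2 members of each list with the smallest p, and the 3 genes with the smallest p of each interaction. Further genes were picked with their values known. The members, the 37 gene lists (15 of cell type markers) and the rules were chosen with earlier results of these data known.

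Replicate numbers 1 to 8 recur in each group, and no label says that they pair samples. Precision is limited by having 8 arrays per group, and read depth does not apply. Promoters were searched with Python 3.11.15 and pandas 2.3.3, and figures drawn with matplotlib 3.10.9 and numpy 2.4.6.

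Alternatives were no filter and a 60th percentile filter, other treatments of probe sets, quantile normalization, centring, array weights, a robust prior, covariates, blocks, and leaving out each array. The striatal covariate, leaving out both vehicle replicate 5 and PF-04447943 replicate 8, the alternatives for lists and the promoter search were chosen after seeing the data.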

Additional observations from a re-analysis of the deposited data

Results flagged for a closer look

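Single arrays stood apart from the other 7 of their group in 19 of 196 sets of 8 values; the gap to the nearest array, over the group's range, exceeded Dixon's limit. Chance alone marks about 5% of such sets, and sets that share an array are not independent.

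Vehicle replicate 5 was marked 6 times. It was the lowest vehicle array for Tuba8 (6.94, next 7.68), Nrgn, a neuronal calmodulin-binding protein (12.2, next 12.8), and Cnih3, an AMPA receptor partner (8.02, next 8.58). It was the highest for Pde9a (8.11, next 7.75), Mrpl52 (10.2) and Ngfr, a neurotrophin receptor (7.64, next 6.42). Its mean level of striatal genes was 10.84, the highest of the 16 arrays, and the part of that in these values was not tested.

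PF-04447943 replicate 8 was marked for Lmf2 (8.61, highest), Prkaca, a catalytic subunit of protein kinase A (10.9, lowest), Gabrd, a GABA-A receptor subunit (9.51, lowest), and Insyn2a (8.37, highest). Its signal range of 3.38 was the lowest of its group.

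PF-04447943 replicate 2 was highest for Klf11 (8.51) and lowest for Mrpl52 (9.63), and PF-04447943 replicate 5 was lowest for Dtymk (8.64) and Ndufa10, a complex I subunit (11.3). PF-04447943 replicate 1 was highest for Clec2l (9.63), and PF-04447943 replicate 6 lowest for Neto2, a kainate receptor partner (9.44). Among vehicle arrays, replicate 3 was highest for Klf11 (7.93), replicate 4 highest for Lrrk1 (6.68) and replicate 7 lowest for Nfatc3, a calcineurin target (6.12).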

How the results depend on the processing

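No gene passed the adjusted threshold of 0.05 for the drug difference under any alternative, or at 0.10. The 24 leading genes kept their sign in all 739 alternative values, with none past the threshold. They were chosen by p on the same arrays, which favours a kept sign. Each value was for the brightest probe set or the mean of probe sets, and no mean was tested for Lrrk1. Dimmer probe sets taken alone had the opposite sign for Ctcf (-0.0097) and Grik3 (0.098). Sizes were not kept, and with the mean of probe sets were 0.0307 for Stam2 and -0.026 for Gpr19. The number with an unadjusted p under 0.05, 326, was 657 with all probe sets, 1277 with array weights (969 higher), 511 with the 3 prime minus 5 prime covariate, 665 with the signal range covariate (299 higher) and 533 with replicate numbers split into 1 to 4 and 5 to 8. It ran from 262 to 579 as each array was left out, and 410 of the 579, without PF-04447943 replicate 8, were higher. Same-numbered arrays deviated together with correlations of -0.1 to 0.52, over 0.1 in 6 of 8 pairs, and 3 of 8 vehicle arrays were best matched by their own number, so not every pair met the limit for pairing. With the replicate block the number was 482 and 0 genes passed. That block changed no other call. The interaction count was 0, and the regional count 9 with array weights and otherwise 0, under the filters, probe set rules, scalings, robust prior, array weights, technical covariates, blocks and the 0.10 threshold. Leaving out arrays and the striatal covariate were not run for these 2 counts. Over the arrays left out, Pde9a ran from -0.103 to -0.0102. Signs turned, with the cause not tested, for Reln (-0.019), Foxf1 (-0.00272) and Insyn2a (-0.0265) with the mean of probe sets, and for Insyn2a (-0.0406) with array weights. Limits: the median half-width of the unadjusted 95% interval was 0.164, and differences as large as that of Tuba8, 0.515, missed the adjusted threshold. Dim probe sets are compressed, and RMA cannot be redone here.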
